A study of Mus musculus with 12 samples.

Results

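This account describes 9 mouse genes whose products restrain mitogen-activated protein (MAP) kinase signalling: the Sprouty genes Spry1 and Spry2, the Sprouty-related genes Spred1 and Spred2, and the dual-specificity phosphatase genes Dusp2, Dusp4, Dusp5, Dusp6 and Dusp10. They were taken from a list of names with no cut-off on their values, and all 9 were found among the 18193 genes measured on the array. Each gene is represented by the probe set with the highest mean over the 12 arrays. Follicular B cells, the main recirculating B cells, came from the spleens of C57Bl/6 mice aged 6 weeks, were sorted on B220, bright CD23 and dim CD21, and were either wild type (WT) or IkL/L. IkL/L mice carry alleles of Ikzf1 that leave their cells short of Ikaros, a DNA-binding factor that governs lymphocyte development; the alleles are in the germline, so other cells of these mice carry them too. Cells of either genotype were cultured for 3 h with no stimulus, for 3 h with anti-IgM, or for 12 h with anti-IgM, always at 10 µg/ml of goat F(ab')2 fragments that cross-link the B cell receptor. The study states 2 independent experiments, and each of the 6 groups has 2 arrays (n = 2).

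The samples hold no unstimulated culture of 12 h, so time in culture and stimulation cannot be told apart at 12 h. The labels do not say how many animals gave each sample, so a p-value speaks to the spread of these samples alone. Values are log2 signals, and array medians lay between 3.12 and 3.21. A floor of 4.21, 1 above the highest array median, marks signals close to background; where an array of the lower group was under it, the fold is a bound, written "at least", with such arrays raised to the floor. Between the 2 arrays of a group, r over genes was 0.99 to 0.994. Xist, which is transcribed from the inactive X chromosome of female cells, ran from 10.01 to 10.69 on the 3 WT replicate 1 arrays and from 3.19 to 3.48 on the other 9 arrays. Results without each source are therefore given where they end a call. Ikzf1 itself read 9.85 and 9.83 in unstimulated WT cells against 10 and 9.94 in IkL/L. No source used here says whether its probes cover what the IkL allele alters, so these levels check no label. B cell markers were bright in unstimulated cells (Cd79b 12.56 and 12.63 for WT, with 12.46 and 12.17 for IkL/L) and dimmer after stimulation, more so on the IkL/L arrays of 3 h, as given with the genotype differences, while 6 of 7 T cell markers and all 3 NK cell markers measured were under the floor on every array.

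When the B cell receptor is cross-linked, Ras passes the signal through the kinases RAF and MEK to ERK, which enters the nucleus and drives transcription of early genes. Among these early genes are the pathway's own brakes. Sprouty proteins hinder the activation of Ras and RAF, Spred proteins bring the Ras GTPase-activating protein neurofibromin to the membrane, and the dual-specificity phosphatases remove the activating phosphates from MAP kinases themselves. Dusp2, Dusp4 and Dusp5 encode inducible nuclear enzymes, Dusp6 encodes a cytoplasmic enzyme selective for ERK, and Dusp10 encodes an enzyme that acts mainly on the related kinases p38 and JNK.

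The DNA in front of these genes is shown first for 4 members: Dusp5 and Dusp2, whose windows held matches to the motifs searched, and Spry2 and Dusp10, whose transcripts differed between the genotypes at 3 h and whose windows held none. Each sequence is the 250 bases before the RefSeq gene start on GRCm38.p6, 5′ to 3′ on the strand of the gene, with motif matches in capitals. The windows are chr19:53528895-53529144 (plus strand) for Dusp5, chr2:127335909-127336158 (plus strand) for Dusp2, chr14:105896820-105897069 (minus strand) for Spry2 and chr1:184034131-184034380 (plus strand) for Dusp10.
Dusp5: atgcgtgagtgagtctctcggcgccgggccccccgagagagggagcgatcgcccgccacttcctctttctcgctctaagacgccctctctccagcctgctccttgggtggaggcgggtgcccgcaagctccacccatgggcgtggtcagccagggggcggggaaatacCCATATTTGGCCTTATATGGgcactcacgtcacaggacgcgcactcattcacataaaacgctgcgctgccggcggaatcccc
Dusp2: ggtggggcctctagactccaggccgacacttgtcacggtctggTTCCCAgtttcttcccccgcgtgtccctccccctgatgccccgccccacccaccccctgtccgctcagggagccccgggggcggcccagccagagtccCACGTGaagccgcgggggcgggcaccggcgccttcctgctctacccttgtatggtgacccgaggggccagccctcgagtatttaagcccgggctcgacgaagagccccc
Spry2: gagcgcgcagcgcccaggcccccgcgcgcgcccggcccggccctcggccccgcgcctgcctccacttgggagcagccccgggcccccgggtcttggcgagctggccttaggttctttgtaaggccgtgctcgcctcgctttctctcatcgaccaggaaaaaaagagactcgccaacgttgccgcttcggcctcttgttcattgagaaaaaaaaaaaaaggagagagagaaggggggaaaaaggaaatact
Dusp10: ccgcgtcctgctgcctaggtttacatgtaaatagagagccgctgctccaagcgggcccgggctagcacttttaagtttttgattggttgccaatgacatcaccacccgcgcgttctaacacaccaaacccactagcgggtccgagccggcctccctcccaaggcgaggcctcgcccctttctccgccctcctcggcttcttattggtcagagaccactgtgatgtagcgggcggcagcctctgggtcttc

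The Dusp5 window held 2 adjacent CArG boxes, the element bound by serum response factor, whose partners of the TCF family are phosphorylated by ERK. They read CCATATTTGG, beginning 82 bases before the start, and CCTTATATGG, beginning 72 bases before it. A CArG box stood in 1.47% of the 32851 promoter windows of the same length. The Dusp2 window held an E-box (CACGTG) 109 bases before the start, as did 6.02% of windows, and the Ikaros core TGGGAA on the other strand (read as TTCCCA) 207 bases before it. Spred2 had the Ikaros core 59 bases before its start, and that core stood in 21.6% of all windows. Of the 8 members with a window in the table (Dusp4 was not matched), 3 held a match to any of the 7 motifs and 5 did not, namely Spry1, Spry2, Spred1, Dusp6 and Dusp10. Both strands were searched, and the other motifs were TGANTCA for AP-1 (6.75% of windows), TGACGTCA for the cAMP response element (1.55%), CCGGAAG for ETS factors (6.91%) and GCGTGGGCG for Egr factors (0.536%). None of the matches in the members overlapped another. The matches describe these letters in these windows alone.

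After 3 h of anti-IgM, brakes at both levels of the pathway rose in WT cells. In limma, 4 of the 9 members were past the threshold (adjusted p under 0.05) and higher, against 9.15% of all genes that were higher and 10.2% that were lower; 0 members were lower. The 4 were Spry2, Spred1, Dusp2 and Dusp4. In IkL/L cells 6 of 9 rose and 0 fell, against 9.82% of all genes higher and 10.6% lower, and Spry1 and Dusp10 joined the 4. The median log2 difference of the members was 0.85 in WT and 1.17 in IkL/L, beside medians of 0.02 and -0.03 over all genes. In bulk RNA a change in the number of cells that express a gene and a change in the RNA per cell cannot be told apart. The 3 h and 12 h differences of a genotype share its unstimulated arrays.

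**Figure D1:**
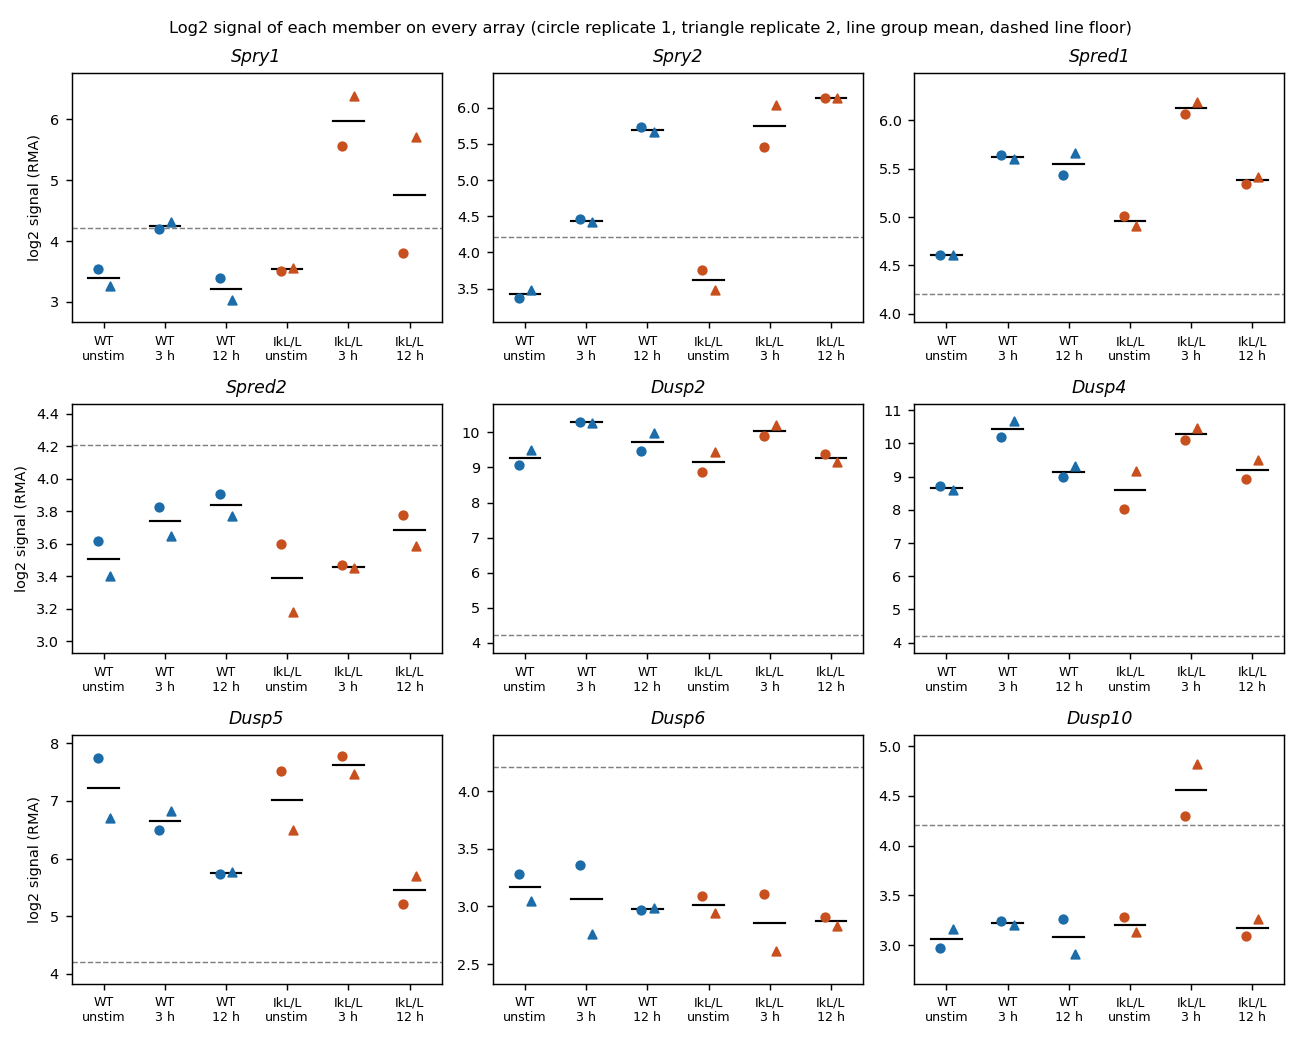
Log2 signal (vertical axis, RMA scale, a different range in each panel) of the 9 members on all 12 arrays by genotype and condition; circles are replicate 1, triangles replicate 2, black lines group means and the dashed line the floor of 4.21. Dusp2 and Dusp4 lie far above the floor in every group, Spry2 leaves it with stimulation in both genotypes, and Dusp10 is above it only on the 2 IkL/L arrays at 3 h (4.30 and 4.82).

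Spry2 gave the clearest stepwise rise. Its log2 signals were 3.37 and 3.48 in unstimulated WT cells, 4.46 and 4.42 at 3 h and 5.73 and 5.67 at 12 h. In IkL/L cells they were 3.75 and 3.48 without stimulus, 5.46 and 6.04 at 3 h and 6.14 and 6.13 at 12 h. Both genotypes therefore began under the floor, and no stimulated array overlapped an unstimulated array of its genotype. In WT the rise was at least 1.18-fold at 3 h (log2 difference 1.02, SE 0.17, adjusted p = 0.00203) and at least 2.82-fold at 12 h (log2 2.28, SE 0.17, adjusted p = 2.41e-05). In IkL/L it was at least 2.91-fold at 3 h (log2 2.13, SE 0.17, adjusted p = 2.58e-05) and at least 3.81-fold at 12 h (log2 2.52, SE 0.17, adjusted p = 1.93e-05).

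From 3 h to 12 h the values of Spry2 stood as follows, and the difference of this later gain between the genotypes was not tested. WT cells gained a further 2.39-fold from 3 h to 12 h (log2 1.26, SE 0.17, adjusted p = 0.00157), whereas the IkL/L gain of 1.31-fold over that span was not past the threshold (log2 0.39, SE 0.17, adjusted p = 0.194). Leaving out the IkL/L 3 h replicate 2 array, the higher of its pair, gave a log2 gain of 0.68 and an adjusted p of 0.0259, the lowest among its alternatives. The order of the levels ran from IkL/L at 12 h through IkL/L at 3 h, WT at 12 h, WT at 3 h and unstimulated IkL/L to unstimulated WT, and IkL/L at 3 h and WT at 12 h did not differ beyond their spread (means 5.75 and 5.70). With WT replicate 1 left out in all conditions the WT rise at 3 h had an adjusted p of 0.104, and without WT replicate 2 one of 0.0636, and the later WT gain had 0.0809 and 0.0826. Over all alternatives the adjusted p ran from 0.000502 to 0.25 for the WT rise at 3 h and from 0.000686 to 0.0826 for the later gain. The second Spry2 probe set stayed under the floor on all arrays (3.19 to 3.57).

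Spry1, the other Sprouty member, reached its highest signals in IkL/L cells. WT signals were 3.54 and 3.26 without stimulus, 4.19 and 4.31 at 3 h and 3.39 and 3.03 at 12 h. IkL/L signals were 3.51 and 3.56 without stimulus, 5.57 and 6.39 at 3 h and 3.81 and 5.71 at 12 h. The 3 h arrays of IkL/L were the brightest pair, and the 12 h pair of IkL/L had the largest standard deviation of any group among these genes (1.34).

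In IkL/L cells the rise of Spry1 at 3 h was at least 3.42-fold (log2 2.45, SE 0.49, adjusted p = 0.00474). It had an adjusted p of 0.0503 without the 3 h replicate 2 array, in a range from 0.000174 to 0.0727 over the alternatives. In WT the 3 h difference was log2 0.85 (SE 0.49, adjusted p = 0.328), with groups that did not overlap. That value had an adjusted p of 0.04 when either IkL/L 12 h array was left out and of 0.0101, the lowest, with only the arrays compared. At 12 h the IkL/L difference was log2 1.22 (SE 0.49, adjusted p = 0.129), and 0.02 with a replicate block within genotype. Without the low 12 h replicate 1 array it was log2 2.18 (adjusted p = 0.00176, the lowest of its alternatives). The fall from 3 h to 12 h in IkL/L, log2 -1.22 (adjusted p = 0.139), had an adjusted p of 0.022 with the same replicate block and 0.00282 without 12 h replicate 2. In order, IkL/L at 3 h came before IkL/L at 12 h and WT at 3 h, and the first 2 overlapped, as did the second and the third.

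Spred1, whose product tethers neurofibromin, was above the floor on all 12 arrays. Its signals were 4.61 and 4.61 in unstimulated WT cells, 5.64 and 5.60 at 3 h and 5.44 and 5.66 at 12 h. The IkL/L signals were 5.01 and 4.91 without stimulus, 6.07 and 6.19 at 3 h and 5.34 and 5.42 at 12 h. The WT arrays of 3 h and 12 h overlapped, and both IkL/L arrays of 3 h stood above those of 12 h. The WT rise was 2.01-fold at 3 h (log2 1.01, SE 0.11, adjusted p = 0.000166) and 1.92-fold at 12 h (log2 0.94, SE 0.11, adjusted p = 0.000315). In IkL/L it was 2.25-fold at 3 h (log2 1.17, SE 0.11, adjusted p = 7.6e-05).

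By 12 h Spred1 in IkL/L cells had fallen 1.68-fold from its 3 h level (log2 -0.74, SE 0.11, adjusted p = 0.00178). This fall of Spred1 was lost without IkL/L replicate 1 (0.0532) or replicate 2 (0.0689) in all conditions, in a range from 0.00096 to 0.0689, and its difference from WT over that span was not tested. At 12 h Spred1 was 1.34-fold above rest (log2 0.43, SE 0.11, adjusted p = 0.0273). That call was lost in 12 of its alternatives (adjusted p from 0.0229 to 0.433), among them each of the 4 arrays compared when left out, at 0.0602 and 0.126 for the unstimulated replicates 1 and 2 and at 0.071 and 0.157 for the 12 h replicates 1 and 2, and with the arrays scaled to housekeeping genes (log2 0.16, adjusted p = 0.433). With 1 source left out in all conditions it was lost too, at 0.0617 for either WT replicate, 0.139 for IkL/L replicate 1 and 0.381 for IkL/L replicate 2. The WT 12 h rise had an adjusted p of 0.172, the highest of its alternatives, when all 8 Spred1 probe sets were averaged (log2 0.19). Of those 8, the probe set used was the single one above the floor on all 12 arrays. A second one, above it on 2 arrays, had 3 h differences of log2 0.74 (WT) and 1.52 (IkL/L), and 6 never reached the floor.

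Spred2, the close relative of Spred1, was under the floor on all 12 arrays, with signals from 3.18 to 3.91. No comparison of it was past the threshold, and its 95% interval for the 3 h response ran from -0.12 to 0.58 in WT and from -0.27 to 0.43 in IkL/L. All 5 of its probe sets stayed under the floor, the highest value being 4.19 on a probe set that was higher in WT at 12 h (log2 0.87, adjusted p = 0.0296 over all probe sets with 1 symbol). Levels this close to background give no order among the groups.

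Dusp2 and Dusp4, which encode nuclear phosphatases that act on ERK, were bright at rest and rose by 3 h in both genotypes. Dusp4 stood at 8.71 and 8.60 in resting WT cells, 10.20 and 10.67 at 3 h and 8.99 and 9.32 at 12 h. In IkL/L cells it had 8.02 and 9.18 without stimulus, 10.09 and 10.48 at 3 h and 8.92 and 9.50 at 12 h. In each genotype both 3 h arrays stood above the other 4. The 3 h rise was 3.43-fold in WT (log2 1.78, SE 0.34, adjusted p = 0.00431) and 3.21-fold in IkL/L (log2 1.68, SE 0.34, adjusted p = 0.00566). The difference between these responses was log2 -0.09, with a 95% interval from -1.18 to 0.99.

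From 3 h to 12 h Dusp4 fell 2.43-fold in WT (log2 -1.28, SE 0.34, adjusted p = 0.0406), and the 2.10-fold lower value in IkL/L was just short of the threshold (log2 -1.07, SE 0.34, adjusted p = 0.0656). With a replicate block within genotype both were past it (adjusted p = 0.00147 and 0.0028, the lowest of their alternatives), and so was the 12 h difference from unstimulated IkL/L cells, log2 0.61 (adjusted p = 0.0443, against 0.322 with no block). The WT fall was lost without any 1 of the 6 WT arrays or of the 2 IkL/L 3 h arrays: the adjusted p was 0.0628 without either unstimulated WT array, 0.0808 and 0.218 without WT 3 h replicate 1 and 2, 0.174 and 0.0949 without WT 12 h replicate 1 and 2, and 0.0552 without either IkL/L 3 h array, within a range from 0.00147 to 0.369. Without WT replicate 1 or 2 in all conditions it was 0.279 or 0.369. The 3 h rise in IkL/L had an adjusted p of 0.0533, the highest of its alternatives, without 3 h replicate 2. In WT it had 0.063 without replicate 1 and 0.163 without replicate 2 in all conditions, in a range from 7.64e-05 to 0.163. Without unstimulated IkL/L replicate 2 the 12 h difference in IkL/L was log2 1.19 (adjusted p = 0.024, the lowest of its alternatives), and without either unstimulated IkL/L array the later IkL/L value of Dusp4 had an adjusted p of 0.014.

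Dusp2 also had its highest signals at 3 h. It stood at 9.06 and 9.49 in resting WT cells, 10.31 and 10.26 at 3 h and 9.47 and 9.97 at 12 h, and at 8.88 and 9.45, 9.90 and 10.21, and 9.39 and 9.16 in the matching IkL/L groups. Dusp2 rose 2.01-fold in WT (log2 1.01, SE 0.23, adjusted p = 0.0115) and 1.86-fold in IkL/L (log2 0.89, SE 0.23, adjusted p = 0.0206), and fell back 1.72-fold by 12 h in IkL/L (log2 -0.78, SE 0.23, adjusted p = 0.0489). In WT the 12 h value was 1.48-fold below that at 3 h, short of the threshold (log2 -0.56, SE 0.23, adjusted p = 0.19).

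The Dusp2 calls were lost when some single arrays were left out. The WT rise had an adjusted p of 0.104 when unstimulated replicate 1 was omitted, and of 0.0655 or 0.05 when 3 h replicate 1 or 2 was, in a range from 0.00282 to 0.213; without WT replicate 1 or 2 in all conditions it was 0.213 or 0.0502. The IkL/L rise of Dusp2 had 0.163 without unstimulated replicate 1 and 0.149 without 3 h replicate 2, in a range from 0.00564 to 0.188; without IkL/L replicate 1 or 2 in all conditions it was 0.188 or 0.0756. Its later fall in IkL/L was lost in 15 alternatives, among them the omission of any 1 of the IkL/L 3 h or 12 h arrays (adjusted p from 0.0818 to 0.268) or of any 1 of the unstimulated or 3 h WT arrays (0.0517 or 0.0696), in a range from 0.0152 to 0.459. Without either WT source the fall of Dusp2 had 0.0625, and without IkL/L replicate 1 or 2 in all conditions 0.0939 or 0.459.

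Dusp5 encodes a nuclear phosphatase selective for ERK, and its promoter window holds the paired CArG boxes shown above. It was the single member of the 9 that passed the threshold with a fall below its resting level. Its signals were 7.74 and 6.71 in unstimulated WT cells, 6.49 and 6.82 at 3 h and 5.73 and 5.76 at 12 h. IkL/L cells had 7.51 and 6.50 without stimulus, 7.77 and 7.46 at 3 h and 5.21 and 5.69 at 12 h. The 12 h arrays of both genotypes lay below all other arrays, and the unstimulated replicates were apart in either genotype, with replicate 1 higher (group SD 0.72 and 0.71). At 12 h Dusp5 was 2.79-fold lower than without stimulus in WT (log2 -1.48, SE 0.37, adjusted p = 0.017) and 2.94-fold lower in IkL/L (log2 -1.56, SE 0.37, adjusted p = 0.0142). From 3 h to 12 h it fell 4.49-fold in IkL/L (log2 -2.17, SE 0.37, adjusted p = 0.00303), and the WT value was 1.87-fold lower, short of the threshold (log2 -0.90, SE 0.37, adjusted p = 0.177).

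At 3 h the difference of Dusp5 from rest was log2 -0.57 in WT (adjusted p = 0.396) and 0.61 in IkL/L (adjusted p = 0.339), neither past the threshold. The WT value was -0.06 without unstimulated replicate 1 and turned to 0.1 without WT replicate 1 in all conditions, in a range from -1.25 to 0.1. Between the genotypes, the test of the difference in response, log2 1.18 (SE 0.52, 95% interval from 0.03 to 2.34), gave an adjusted p of 0.877. The 12 h fall of Dusp5 was lost in WT without unstimulated replicate 1 (log2 -0.97, adjusted p = 0.146), 12 h replicate 1 (0.0708) or 12 h replicate 2 (0.0686), or without WT replicate 1 in all conditions (0.316), in a range from 0.00585 to 0.316. In IkL/L it was lost without unstimulated replicate 1 (log2 -1.05, adjusted p = 0.104) or 12 h replicate 1 (0.0946), or without IkL/L replicate 1 in all conditions (0.364), in a range from 0.00463 to 0.364. The later IkL/L fall was lost without IkL/L replicate 1 in all conditions (log2 -1.77, adjusted p = 0.0661, the highest of its alternatives).

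Dusp6 and Dusp10 were the dim members among the phosphatases. Dusp6, which follows ERK activity in many other cells, stayed under the floor on all 12 arrays (2.61 to 3.36) and passed the threshold in no comparison. Its 95% interval for the 3 h response ran from -0.57 to 0.36 in WT and from -0.62 to 0.31 in IkL/L. Dusp10, a phosphatase of p38 and JNK, ran from 2.91 to 3.28 on 10 arrays and reached 4.30 and 4.82 in IkL/L cells at 3 h. Those 2 arrays were the ones above the floor, and they overlapped no other group.

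The rise of Dusp10 in IkL/L cells at 3 h was at least 1.28-fold over the floor (log2 1.35, SE 0.18, adjusted p = 0.000467), and by 12 h it was back under the floor (log2 -1.38 from 3 h, SE 0.18, adjusted p = 0.000768). In WT the 3 h difference was log2 0.15, with a 95% interval from -0.25 to 0.56. With all values under the floor raised to it, the IkL/L difference became log2 0.35 (adjusted p = 0.251), the highest p of its alternatives. The second Dusp10 probe set never passed 3.02.

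**Figure D2:**
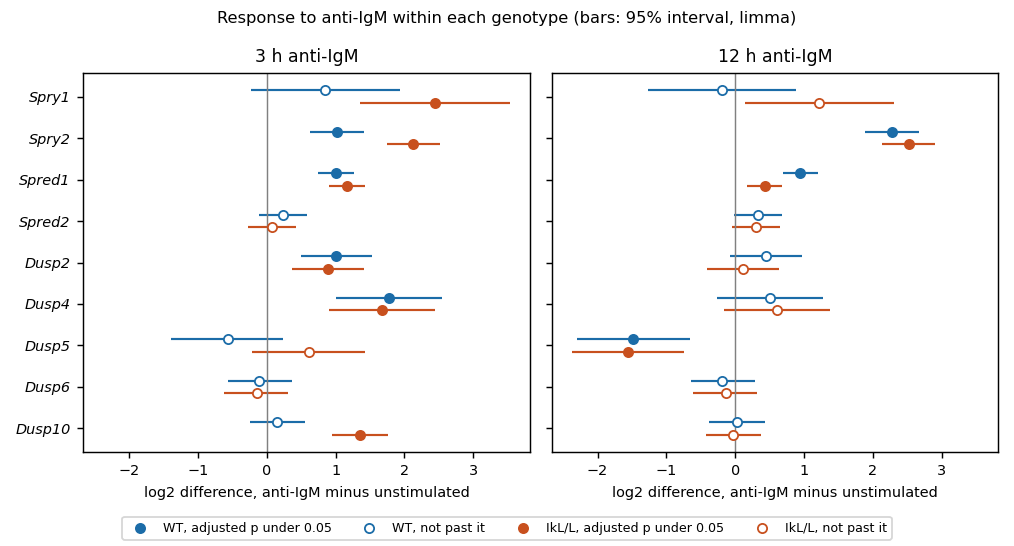
Log2 difference between anti-IgM and unstimulated cells (horizontal axis) for each member, at 3 h (left) and 12 h (right), in WT (blue) and IkL/L (orange); bars are 95% intervals from limma and filled points have an adjusted p under 0.05. At 3 h the IkL/L points of Spry1, Spry2 and Dusp10 lie to the right of the WT points, and at 12 h Dusp5 lies left of 0 in both genotypes (-1.48 and -1.56).

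At 12 h some of the early brakes were still up. In WT, Spry2 and Spred1 were higher (2 of 9, against 10.1% of all genes) and Dusp5 was lower (1 of 9, against 8.66%). In IkL/L these same members were past the threshold in the same directions, where 9.72% of all genes were higher and 7.87% lower. Dusp2 and Dusp4 stood 1.36-fold and 1.41-fold above rest at 12 h in WT, short of the threshold (adjusted p = 0.262 and 0.431). From 3 h to 12 h, 2 of 9 members changed in WT, Spry2 upward and Dusp4 downward (6.5% of all genes rose and 4.33% fell). Over that span 4 of 9 fell in IkL/L, namely Spred1, Dusp2, Dusp5 and Dusp10, and 0 rose (6.42% of all genes fell and 9.12% rose). With a replicate block within genotype the IkL/L count at 12 h was 5 of 9, adding Spry1 and Dusp4. Scaling to housekeeping genes shifted the median of all genes by -0.121 in WT and -0.265 in IkL/L at 12 h, and by -0.133 and -0.291 from 3 h to 12 h; the differences given here are relative to an equal overall signal.

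The second question was whether the brakes differ between IkL/L and WT cells in the same condition. Without stimulus 0 of 9 members differed past the threshold in limma (1 at an unadjusted p under 0.05, Spred1), against 1.13% of all genes. At 3 h 2 of 9 did, Spry2 and Dusp10, both higher in IkL/L, against 0.835% of all genes higher and 0.868% lower. At 12 h the count was 0 of 9 again (2 at an unadjusted p under 0.05, Spry1 and Spry2), against 0.616% of all genes. On average over the 3 conditions Spry1, Spry2 and Dusp10 were higher in IkL/L (3 of 9, against 3.41% of all genes higher and 2.67% lower). That fit takes the arrays of 1 source as independent. With a random replicate block for the source, limma gave 2 of 9. The adjusted p was then 0.0177 for Spry2, 0.0473 for Dusp10 and 0.0777 for Spry1.

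Spry2 was 2.47-fold higher in IkL/L than in WT at 3 h, with means of 5.75 and 4.44 (log2 1.30, SE 0.17, adjusted p = 0.00807). The 2 IkL/L arrays, 5.46 and 6.04, stood well above the 2 WT arrays, 4.46 and 4.42. Without stimulus the difference was log2 0.19 (95% interval from -0.20 to 0.58) and at 12 h it was 1.35-fold (log2 0.44, 95% interval from 0.05 to 0.82, adjusted p = 0.435). Averaged over conditions it was log2 0.64 (SE 0.10, adjusted p = 0.0054). The 3 h call was lost without WT 3 h replicate 2 (log2 1.28, adjusted p = 0.0796), in a range from 0.00449 to 0.159 over the alternatives. It was also lost without WT replicate 1 (0.0916), WT replicate 2 (0.159) or IkL/L replicate 2 (0.0681) in all conditions, and with only the arrays compared (0.0633). The average call was lost without WT replicate 1 (0.0568) or replicate 2 (0.101) in all conditions, in a range from 0.00188 to 0.101.

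Dusp10 was at least 1.28-fold higher in IkL/L at 3 h (means 4.56 and 3.22, log2 1.34, SE 0.18, adjusted p = 0.00843). Its intervals in the other 2 conditions straddled 0, from -0.27 to 0.55 without stimulus and from -0.32 to 0.50 at 12 h. The average difference was log2 0.52 (SE 0.11, adjusted p = 0.0174). The 3 h call of Dusp10 was lost without WT 3 h replicate 2 (adjusted p = 0.0814) or IkL/L 3 h replicate 2 (log2 1.08, adjusted p = 0.0742), and with both probe sets averaged (log2 0.58, adjusted p = 0.0527), in a range from 0.00123 to 0.755. Without WT replicate 1, WT replicate 2 or IkL/L replicate 2 in all conditions it was 0.0733, 0.134 or 0.137, and with only the arrays compared 0.053. The average call was lost without WT unstimulated replicate 1 (0.0526), WT 3 h replicate 2 (0.0519) or IkL/L 12 h replicate 2 (0.0566), in a range from 0.00745 to 0.84, and without the same sources at 0.069, 0.171 and 0.147.

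Spry1 showed the largest genotype differences of the 9 members in size and also the least even replicates. It was at least 3.30-fold higher in IkL/L at 3 h (log2 1.73, SE 0.49, adjusted p = 0.135) and at least 1.47-fold higher at 12 h (log2 1.55, SE 0.49, adjusted p = 0.288), with no overlap between the genotypes at either time. The average over conditions was log2 1.14 (SE 0.28, adjusted p = 0.0428). Treating the arrays of 1 source as a random replicate block gave 0.0777 for the average, and 16 of 27 alternatives lost it (adjusted p from 0.00127 to 0.336). Leaving out any 1 of the 6 WT arrays gave from 0.0585 to 0.118, either unstimulated IkL/L array 0.071 or 0.0931, and IkL/L 3 h replicate 2 0.131. Without WT replicate 1, WT replicate 2 or IkL/L replicate 2 in all conditions the average of Spry1 had 0.155, 0.336 or 0.0586. The 3 h difference of Spry1 had an adjusted p of 0.0134 without either IkL/L 12 h array, and the 12 h difference had 0.00825 and log2 2.50 without IkL/L 12 h replicate 1, the lowest p of that comparison.

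Spred1 was 1.43-fold higher in IkL/L at 3 h (log2 0.51, SE 0.11, adjusted p = 0.059) and 1.27-fold higher without stimulus (log2 0.35, SE 0.11, adjusted p = 0.246), and both pairs of arrays were clear of the WT pairs. At 12 h the sign was the other way (log2 -0.17, adjusted p = 0.716). With a replicate block shared by both genotypes the 3 h value had an adjusted p of 0.0456, the lowest of its alternatives. The second Spred1 probe set, above the floor on 2 arrays, had a 3 h difference of log2 0.89. Its adjusted p in limma over all probe sets with 1 symbol was 0.0434. On the Spred1 probe sets that never reached the floor the 3 h difference ran from log2 -0.48 to 0.49. Dusp5 was 1.95-fold higher in IkL/L at 3 h (log2 0.96, SE 0.37, adjusted p = 0.286). For the bright phosphatases the 3 h differences were small and within their error: log2 -0.23 for Dusp2 (95% interval from -0.75 to 0.29) and -0.15 for Dusp4 (95% interval from -0.92 to 0.62).

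**Figure D3:**
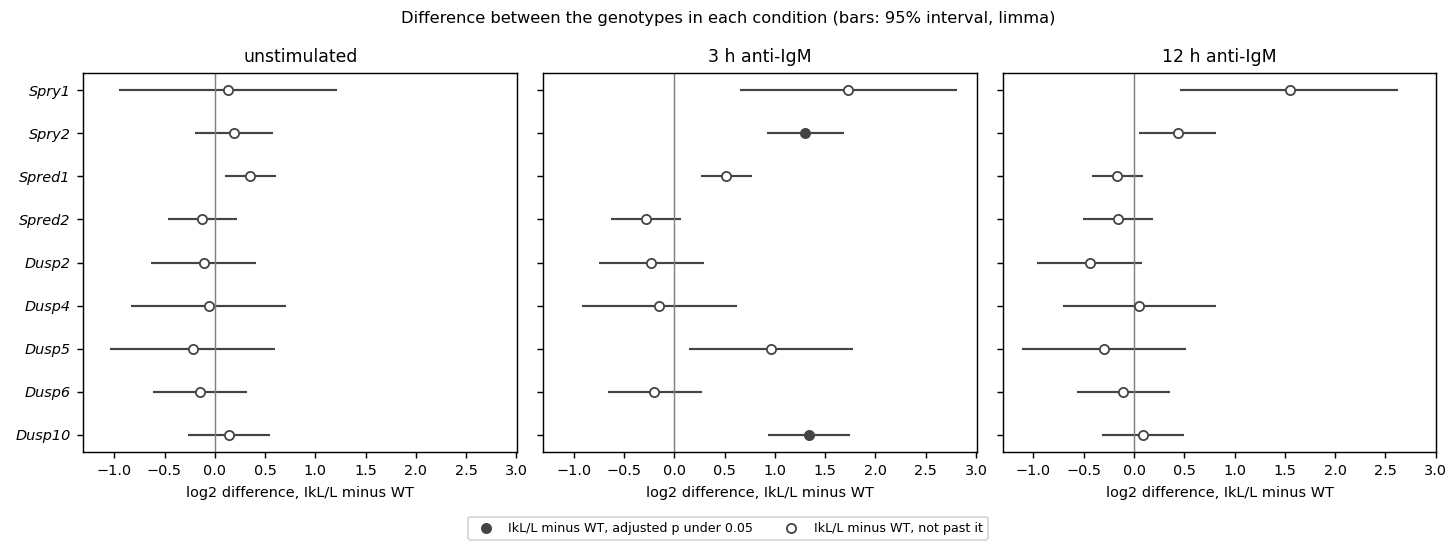
Log2 difference between IkL/L and WT cells (horizontal axis, IkL/L minus WT) for each member without stimulus (left), at 3 h (middle) and at 12 h (right) of anti-IgM; bars are 95% intervals from limma and filled points have an adjusted p under 0.05. The filled points are Spry2 (1.30) and Dusp10 (1.34) at 3 h, and Spry1 has the longest bars.

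Whether the response itself differed between the genotypes was tested as a difference of differences. In limma 0 of 9 members were past the threshold at 3 h, where 0.0385% of all genes were, and 0 of 9 at 12 h, where 0.022% were. At 3 h the unadjusted p was under 0.05 for 4 members: Dusp10 (log2 1.2, SE 0.26, adjusted p = 0.338), Spry2 (log2 1.11, SE 0.25, adjusted p = 0.346), Spry1 (log2 1.60, SE 0.69, adjusted p = 0.877) and Dusp5. All 4 were positive, that is, more positive in IkL/L. At 12 h it was so for 1 member, Spred1, whose difference had the other sign (log2 -0.52, SE 0.16, adjusted p = 0.645). The rise of Spry1 and Dusp10 in IkL/L and their failure to pass in WT are therefore not shown to be a difference between the genotypes' responses.

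Markers of B cells and of other cells also differed between the genotypes, at 3 h, where Spry2 and Dusp10 did, and in the other conditions. The summed linear signal of the 4 B cell markers measured was 3072 to 3880 on the WT arrays of 3 h and 1492 to 1947 on the IkL/L arrays of 3 h, with no overlap, and 10714 to 10921 against 7412 to 8789 without stimulus. Of these, Cd79b, a chain of the B cell receptor, was at 10.43 and 10.91 in WT at 3 h against 9.21 and 8.54 in IkL/L. The follicular marker Fcer2a, which encodes CD23, was at 9.02 and 9.10 in WT at 3 h against 9.06 and 9.25 in IkL/L. At 12 h Fcer2a was lower in IkL/L with no overlap (7.63 and 8.06 in WT against 6.89 and 6.37). Without stimulus it overlapped (9.46 and 9.83 against 9.39 and 9.76). The summed linear signal of the 3 dendritic cell markers measured was 40 to 53 on the WT arrays of 3 h and 82 to 84 on the IkL/L arrays of 3 h. In that sum 2 markers were under the floor on all arrays, and Flt3, at 6.03 and 6.06 there against 5.17 and 4.54 in WT at 3 h, was the third. The 7 monocyte, macrophage and neutrophil markers summed to 63 to 178 and 103 to 234 at 3 h, and S100a8 was higher in replicate 2 of every group, for example 6.70 against 5.08 in IkL/L at 3 h. The 4 plasma cell markers summed to 380 to 464 on the WT arrays of 3 h and 525 to 787 on those of IkL/L. Among them Xbp1 was higher on the IkL/L arrays (8.84 and 8.94 against 8.29 and 8.46), and Jchain overlapped. Sdc1 (2.41 and 2.73 against 3.45 and 4.63) and Prdm1 (2.92 and 2.92 against 4.50 and 4.93) were lower, and under the floor in IkL/L. The 5 marginal zone markers summed to 1096 to 1178 for WT at 3 h and 1005 to 1019 for IkL/L. Within that list Cd9 was higher on the IkL/L arrays (8.30 and 8.64 against 6.00 and 5.67), Cr2 (7.86 and 7.79 against 8.49 and 8.06), Dtx1 (8.14 and 7.74 against 8.78 and 9.28) and Mzb1 (7.32 and 7.28 against 7.74 and 7.77) were lower, and Cd1d1 overlapped. Sums differed at 12 h too, where no member was past the threshold. There WT and IkL/L arrays had 4738 to 4812 and 3087 to 4515 for B cell markers, and 32 to 42 and 45 to 51 for dendritic cell markers. Plasma cell markers summed to 582 to 732 and 884 to 1089, and marginal zone markers to 1243 to 1259 and 1868 to 2087. The genes of these lists did not move together at 12 h. Of the plasma cell markers, Xbp1 (9.73 and 9.89 against 9.10 and 9.43) and Jchain were higher on the IkL/L arrays. Sdc1 was lower (2.33 and 2.82 against 3.65 and 3.98, all under the floor), and Prdm1 overlapped. Of the marginal zone markers, Cd9 (8.37 and 9.15 against 6.24 and 6.24) and Mzb1 were higher, while Cr2, Cd1d1 and Dtx1 overlapped. Without stimulus the dendritic cell sums were 35 to 40 and 50 to 56, while plasma cell and marginal zone sums overlapped. Single markers of those lists still differed without stimulus. Sdc1 was at 6.22 and 6.61 in WT against 3.43 and 3.13 in IkL/L, and Cd9 at 5.56 and 5.84 against 7.81 and 7.69. Xbp1 was higher in IkL/L, and Dtx1 and the dim Prdm1 were lower. Jchain, Cr2, Cd1d1 and Mzb1 overlapped. The part of these markers in the results on the brakes was not tested.

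The rest of the pathway was read from lists written down from general knowledge. For the counts of these lists at 3 h, the shares over all genes were 9.15% higher and 10.2% lower in WT. In IkL/L they were 9.82% and 10.6%. Between the genotypes 0.835% of all genes were higher in IkL/L and 0.868% lower at 3 h, and 3.41% and 2.67% on average over the conditions. Of 12 other MAP kinase phosphatase, Sprouty and Spred genes measured, 2 rose at 3 h in either genotype, in both cases Dusp22 and Dusp3, which encode small atypical phosphatases (Dusp22 log2 1.94 in WT and 2.27 in IkL/L, Dusp3 log2 1.14 and 0.86). Both came down again by 12 h, and Dusp1, the immediate early phosphatase of p38 and JNK, was lower at 12 h than without stimulus by log2 -2.47 in WT and -3.15 in IkL/L. None of the 12 differed between the genotypes past the threshold in limma at 3 h, where 4 had an unadjusted p under 0.05. On average over the conditions Dusp22 was higher in IkL/L (log2 0.37, adjusted p = 0.0251) and Dusp3 lower (log2 -0.48, adjusted p = 0.0288). The median of this list at 3 h was 0.13 in WT and -0.02 in IkL/L, beside 0.02 and -0.03 over all genes.

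Upstream of the kinases, more Ras regulators fell than rose. Of 13 Ras exchange factors and GTPase-activating proteins 7 fell and 2 rose in WT at 3 h, and 6 fell and 2 rose in IkL/L, with list medians of -0.71 and -0.57. Rasa3, which switches Ras and Rap off, fell (log2 -3.92 in WT and -4.57 in IkL/L), as did Rasgrp2, an exchange factor for Rap (at least 8.97-fold and at least 3.63-fold). At 3 h Rasa3 was also the single gene of this list that differed between the genotypes (log2 -1.32, IkL/L minus WT, SE 0.22, adjusted p = 0.0219). In limma Rasgrp2 was lower in IkL/L without stimulus (log2 -1.31, adjusted p = 0.021), and Rasgrp1 was at 12 h (log2 -1.27, adjusted p = 0.0474). On average over the conditions 1 gene of the list was higher in IkL/L and 3 were lower, namely Rasgrp1, Rasa3 and Rasgrp2. Of 16 genes of the Ras to ERK cascade itself 2 rose and 3 fell in WT at 3 h, while 0 rose and 4 fell in IkL/L (6 at an unadjusted p under 0.05), led by Mknk2, a kinase downstream of ERK (log2 -1.60 and -1.86).

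Of 18 genes known as targets of ERK signalling 4 rose and 2 fell at 3 h in WT, and 5 rose and 2 fell in IkL/L. Egr2 (log2 2.70 in WT and 2.09 in IkL/L) and Myc (log2 2.79 and 2.15) led in both genotypes, and Fosl1, an AP-1 subunit, led in IkL/L with at least 4.66-fold (log2 2.99, SE 0.51, adjusted p = 0.00209). By 12 h Egr2 was still at log2 2.92 and 2.05 above rest, and Fos, another AP-1 subunit, was below rest at log2 -1.69 and -2.75. The list's medians at 3 h were 0.46 in WT and 0.27 in IkL/L. At 3 h 0 of the 18 differed between the genotypes past the threshold in limma, and 4 had an unadjusted p under 0.05. On average over the conditions Fos alone was past it, higher in IkL/L (log2 1.03, adjusted p = 0.0447).

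The genes whose patterns lay nearest to the members with the widest range of group means were found by the root mean square difference of centred log2 values over the 12 arrays. Fosl1 was nearest to Spry1 (0.37), with WT means of 3.04, 4.60 and 3.45 and IkL/L means of 3.44, 6.43 and 4.63 for the unstimulated, 3 h and 12 h cells. The interleukin receptor chain gene Il15ra (0.38) and the kinase gene Map2k3 (0.43) came next. Spry2 lay nearest to Rangrf (0.30), Rab26os (0.32) and 2010204K13Rik (0.37), all of which climbed from rest through 3 h to 12 h in both genotypes, as Rangrf did from 5.19 through 6.48 to 7.69 in WT. Dusp5 lay nearest to Cmip (0.42), Ezr (0.43) and Ebf1 (0.44), whose lowest group means were those at 12 h, for Ebf1 7.67 in WT and 7.28 in IkL/L, where it was at 9.01 at rest. These are distances within the same 12 arrays.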

How the data were processed

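Total RNA, 100 ng per sample, was labelled in a 2-cycle protocol and hybridized to an Affymetrix mouse array, per the labels' protocols. The values deposited by the authors are log2 signals per probe set from RMA, per the submitters' processing notes, whose version and settings are not given in the sources used here. Of 45037 probe sets, 34945 carried 1 gene symbol, 932 several and 9160 were not listed; those without a single symbol were left out, which gave 18193 genes with the highest-mean probe set each. In limma 3.58.1 (R 4.3.3) a mean for each group was estimated from all 12 arrays together (6 residual and 3.95 prior degrees of freedom), with 12 comparisons and Benjamini-Hochberg adjustment over all genes of each. The procedure was tested on simulated data for the WT comparison of 3 h with no stimulus alone. Noise was drawn independently for each array, with no deviation shared within a source. It recovered 90% of changes of log2 1 and 100% of changes of log2 2. Comparisons between genotypes were not simulated. Precision is limited by the 2 arrays in each group.

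The members, gene lists, motifs and tests were chosen with earlier results of these data known. All members were named in every comparison; of the other lists, up to 3 genes past the threshold with the largest change, and the 3 nearest genes by root mean square difference for the 3 members of widest range. Arrays with the same replicate number deviated together within a genotype (r from 0.546 to 0.619 in WT and from 0.354 to 0.49 in IkL/L over the 6064 brightest genes) and less so across genotypes (0.026 to 0.31), so numbers were taken to pair arrays within a genotype. The main fit holds no term for this pairing, so its counts and adjusted p-values ignore it. The pairing enters only where a replicate block is named. The replicate block was a fixed term within genotypes and a random source (consensus correlation 0.166) for comparisons between genotypes. Of the listed genes, those without a measured probe set of their own are not reported here. Other settings are given in the closing section. Sequences are RefSeq's, and 8 of 9 members matched.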

Additional observations from a re-analysis of the deposited data

How the results depend on the processing

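All 27 calls of single members kept their direction in all 753 values recomputed under other settings. Settings that alter only the error estimate, the set of genes or the arrays outside a comparison leave its difference as it was. Under those the direction could not change. In 635 the adjusted p stayed under 0.05 and in 118 it did not. Of the 81 results not past the threshold, 11 passed under at least 1 setting. The settings were a replicate block within genotype or shared by both, the mean of all probe sets, each probe set alone, median centring, housekeeping scaling, array weights, an intensity trend, a fit to the compared arrays alone, omission of the dimmest 1 in 3 genes, each array left out and each source left out. Raising values under the floor to it, and removing genes under it on every array, were added after the data were seen.

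The larger moves in the count of members past the threshold are given here, and smaller moves are not all listed. With the replicate block within genotype, IkL/L at 12 h against unstimulated had 5 members in place of 3. From 3 h to 12 h in IkL/L that block gave 6 in place of 4. Beyond the values given with the results, the block changed no other call. For WT from 3 h to 12 h, 2 members became 1 with each probe set alone and with median centring, and 4 with only the arrays compared. For the genotypes at 3 h, 2 became 1 with the mean of all probe sets and 0 with only the arrays compared. With array weights or with the block shared by both genotypes they became 3. Among the smaller moves, WT at 12 h went from 3 to 2 with the mean of all probe sets. The average over conditions went from 3 to 2 with that mean, with each probe set alone and with array weights. With values raised to the floor the counts were 2 in WT at 3 h, 1 in WT from 3 h to 12 h, 2 in IkL/L at 3 h, 2 in IkL/L from 3 h to 12 h, 0 between genotypes at 3 h and 0 on average; in that fit many genes have no spread in a group. Leaving out 1 array or 1 source gave 1 to 5 members in WT at 3 h, 2 to 3 in WT at 12 h, 0 to 3 in WT from 3 h to 12 h, 3 to 6 in IkL/L at 3 h, 1 to 3 in IkL/L at 12 h, 1 to 5 in IkL/L from 3 h to 12 h, 0 to 3 between genotypes at 3 h, 0 to 1 at 12 h and 0 to 3 on average. A group left with 1 array was assumed to vary like the others. The cause of these changes was not tested.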
